A study of Mus musculus with 10 samples.

Results

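The genes described here are Atf4 and 9 genes of the amino acid response: the transcription factors Atf3 and Ddit3, the feedback and stress genes Trib3 and Chac1, the biosynthetic enzymes Asns, Psat1, Phgdh and Mthfd2, and the cystine transporter Slc7a11. They were taken by name, as all noncontrol array probes annotated to these 10 symbols. They made up 13 of 55681 probes and 10 of 28193 genes tested, and all 10 passed the filter on dim signals. Expression was measured in mouse embryonic stem (ES) cells that carry an extra copy of 1 autosome. The 4 lines Ts6, Ts8, Ts11 and Ts15, labelled 129 S7/SvEvBrd, have chromosome 6, 8, 11 or 15 in 3 copies and were set against the diploid ES cell line AB1 (WT). RNA came from passages 9 and 18 (Ts6), 10 and 13 (Ts8), 8 and 11 (Ts11), 11 and 14 (Ts15), and 18 and 20 (WT), with 2 replicates per group and 10 arrays in all. The labels give no treatment, no number of clones and no parent line for the trisomic cells, so karyotype, origin and passage cannot be told apart in any comparison with WT. All cells had been grown on irradiated SNL76/7 feeder cells, which were depleted by settling before RNA extraction. P-values measure the spread between these cultures.

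Atf4 is a basic leucine zipper transcription factor whose mRNA is translated more when the initiation factor eIF2α is phosphorylated, so its mRNA level is not a measure of its protein. The kinase Gcn2 (Eif2ak4) phosphorylates eIF2α when uncharged tRNAs accumulate during amino acid shortage, and Perk (Eif2ak3) does so when unfolded proteins accumulate in the endoplasmic reticulum (ER). Atf4 pairs with C/EBP factors on composite sites and raises the transcription of genes for amino acid synthesis and uptake, and of the factors that end or redirect the response. Mouse ES cells depend strongly on amino acid and folate metabolism for proliferation.

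Chac1, Asns, Atf3 and Trib3 were, beside Atf4, the members called different from WT in some line, and their promoters are shown first because they hold the element through which Atf4 is known to act. The RefSeq windows of all 10 genes (GRCm38.p6, 250 bases before to 50 bases after each annotated start, 11 windows since Psat1 has a pair) were searched on both strands for TGATGNAA, a C/EBP-ATF composite element. It was found in the windows of 5 of the 10 genes (Chac1, Asns, Atf3, Trib3 and Slc7a11), against 3.97% of 32851 RefSeq windows of the same length. The cyclic AMP response element TGACGTCA, which does not overlap with it, was in 0 of the 11 windows and in 1.79% of all windows. A match is a description of the letters and no evidence of binding. Below are the 250 bases before the start of Chac1 (chr2:119350992-119351241, plus strand), Asns (chr6:7693210-7693459, minus strand) and Atf3 (chr1:191183334-191183583, minus strand), and 30 bases after the start of Trib3 (chr2:152344028-152344057, minus strand), each 5′ to 3′ in the direction of transcription. Capitals mark the match, which is the reverse complement of the element in Chac1, Atf3 and Trib3.
Chac1: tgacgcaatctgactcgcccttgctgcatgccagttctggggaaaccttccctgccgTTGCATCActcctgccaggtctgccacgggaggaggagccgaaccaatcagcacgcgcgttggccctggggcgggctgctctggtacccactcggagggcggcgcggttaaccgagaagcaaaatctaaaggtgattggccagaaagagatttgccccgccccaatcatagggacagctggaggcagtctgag
Asns: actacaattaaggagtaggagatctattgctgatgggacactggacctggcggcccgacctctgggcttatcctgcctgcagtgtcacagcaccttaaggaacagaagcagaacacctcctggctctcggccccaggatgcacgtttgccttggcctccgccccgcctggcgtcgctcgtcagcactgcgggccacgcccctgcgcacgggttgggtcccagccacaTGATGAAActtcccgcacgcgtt
Atf3: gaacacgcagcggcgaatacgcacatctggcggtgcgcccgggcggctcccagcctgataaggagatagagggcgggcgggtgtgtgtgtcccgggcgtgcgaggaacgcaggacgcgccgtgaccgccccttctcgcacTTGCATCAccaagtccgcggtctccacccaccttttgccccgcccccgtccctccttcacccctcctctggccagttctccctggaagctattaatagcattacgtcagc
Trib3: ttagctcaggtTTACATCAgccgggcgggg
The element began at position -193 in Chac1, -23 in Asns, -110 in Atf3 and +15 in Trib3, counted from the annotated start at +1. The Slc7a11 window held 2 matches, at -66 and -47, on opposite strands. Neither Atf4 itself nor Ddit3, Psat1, Phgdh or Mthfd2 had a match in this window.

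Values are given as log2 of the processed signal over the 75th percentile of the array, so that 0 is that percentile and a difference of 1 is a 2-fold difference. Levels are compared between samples for the same probe and not between genes. On these arrays 71.4% to 80.2% of noncontrol spots were well above background and no spot was saturated. The probes of 9 members were well above background on all 10 arrays, and that of Slc7a11 on 6. WT, Ts6, Ts8 and Ts11 shared slide 1, and both Ts15 arrays were on slide 2, so that line and slide cannot be told apart in any difference of Ts15 from another group. All 12 ES cell markers examined were well above background on all arrays. Of 20 markers of feeder fibroblasts, all were well above background on all 10 arrays except Col5a2 (9 arrays), Postn (6 arrays) and Lum (0 arrays). Their summed signal, as a multiple of the 75th percentile, was 71.4 and 84.1 on the Ts6 arrays, 84.5 and 76.1 on the Ts8 arrays, 90.0 and 80.1 on the Ts11 arrays and 98.1 and 104 on the Ts15 arrays, against 86.1 and 92.4 on the WT arrays. It was higher on both Ts15 arrays than on any other array. In bulk RNA, fewer cells of a type and less RNA per cell cannot be told apart.

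Atf4 lies on chromosome 15, the trisomic chromosome of Ts15. Its main probe (mm9, chr15:80087902-80087961) read 3.33 and 3.32 on the Ts6 arrays, 3.10 and 3.07 on the Ts8 arrays, 3.47 and 3.37 on the Ts11 arrays and 3.91 and 3.57 on the Ts15 arrays, against 3.25 and 3.12 on the WT arrays. Both Ts15 values were above all 8 others, and both Ts8 values were below all others. In Ts15 the level was 1.47-fold that of WT, a log2 change of 0.55 ± 0.13 (SE) with a limma adjusted p of 0.046. The changes in Ts6 (0.14 ± 0.13), Ts8 (-0.10 ± 0.13) and Ts11 (0.24 ± 0.13) did not pass the test, with limma adjusted p of 0.56, 0.66 and 0.30. The Ts15 call was lost without Ts15 replicate 1 (0.39, limma adjusted p 0.20), without WT replicate 1 (0.62, adjusted p 0.086) and without WT replicate 2 (0.49, adjusted p 0.18), and was kept without Ts15 replicate 2 (0.72, adjusted p 0.046). It was also lost without any scaling between arrays (0.29, limma adjusted p 0.12) and with quantile normalization (0.42, adjusted p 0.053).

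Set against the mean of the 4 other groups, Atf4 rose by 0.48 ± 0.10 in Ts15, with a limma adjusted p of 0.020. This call was lost when Ts15 replicate 1 was left out (0.32, limma adjusted p 0.17) and without scaling (0.29, adjusted p 0.054). The median over the 1105 tested chromosome 15 genes in the same contrast was 0.25, and Atf4 was above 79.6% of them. A copy number of 3 against 2 would be a log2 difference of 0.58 if signal followed copy number. A second Atf4 probe (chr15:80086639-80086698) read 3.14 and 3.02 on the Ts6 arrays, 2.21 and 2.38 on the Ts8 arrays, 2.91 and 2.92 on the Ts11 arrays and 3.41 and 3.28 on the Ts15 arrays, against 2.72 and 2.43 on the WT arrays. Both probes were highest in Ts15 and lowest in Ts8. With all 43056 probes tested apart, the second probe changed by 0.77 ± 0.13 in Ts15 relative to WT (limma adjusted p 0.018) and the main probe by 0.55 (adjusted p 0.051). The probes differed most in Ts6, where the second read 0.51 ± 0.13 above WT (limma adjusted p 0.061) and the main one 0.14.

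**Figure D1:**
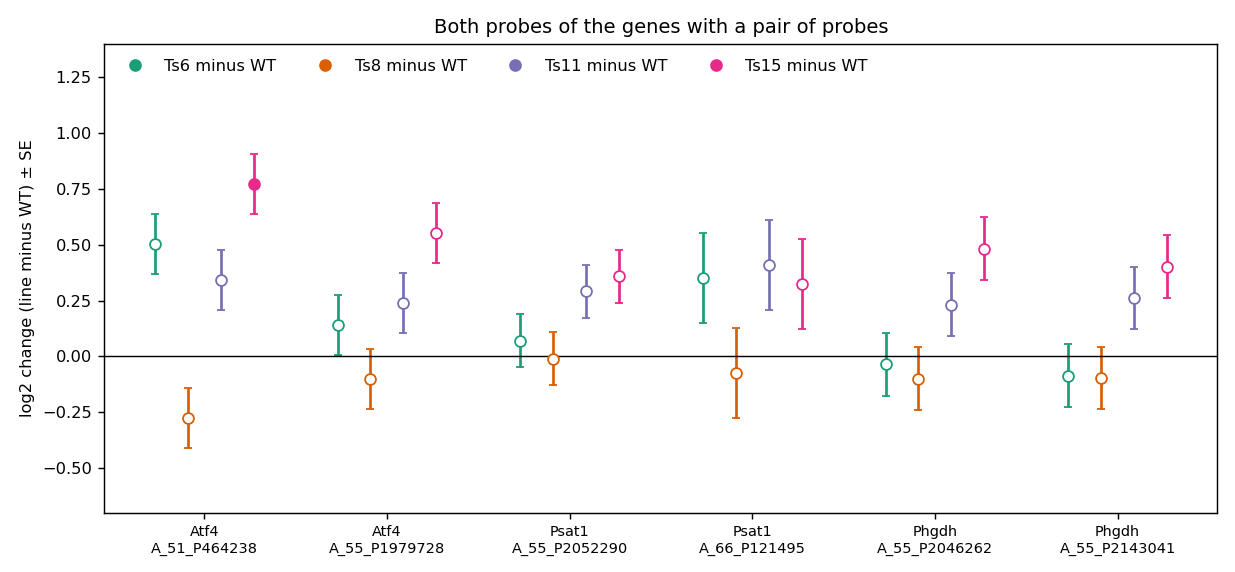
Change in each line relative to WT (log2 scale, limma estimate ± SE) for each probe of Atf4, Psat1 and Phgdh, with filled points for calls at an adjusted p under 0.05 over all probes. For Atf4 both probes are highest in Ts15 (0.55 and 0.77) and below 0 in Ts8 (-0.10 and -0.28).

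Atf3, a stress-induced factor of the same family that Atf4 activates, was highest in Ts15, as was Atf4. Its probe (mm9, chr1:192994547-192994606) read 1.21 and 0.74 on the Ts6 arrays, 0.68 and 1.26 on the Ts8 arrays, 1.26 and 1.33 on the Ts11 arrays and 2.21 and 2.03 on the Ts15 arrays, against 1.17 and 0.91 on the WT arrays. Both Ts15 values were above all others, while the Ts6 and Ts8 values spread around those of WT. In Ts15 the level was 2.11-fold that of WT (1.08 ± 0.23, limma adjusted p 0.031), whereas the changes in Ts6 (-0.06), Ts8 (-0.07) and Ts11 (0.26) had limma adjusted p of 0.90, 0.88 and 0.52. The Ts15 call was lost when any of the 4 arrays compared was left out, with a change of 0.95 without WT replicate 2, 0.99 without Ts15 replicate 1, 1.17 without Ts15 replicate 2 and 1.21 without WT replicate 1, and limma adjusted p between 0.065 and 0.15. The differences of Ts6, Ts8 and Ts11 from Ts15 themselves passed the test, at -1.14, -1.14 and -0.82 with limma adjusted p of 0.014, 0.016 and 0.048.

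Ddit3 encodes CHOP, a factor induced through Atf4 that promotes cell death under lasting stress. Its probe (mm9, chr10:126732518-126732821) read 1.30 and 1.55 on the Ts6 arrays, 1.51 and 1.99 on the Ts8 arrays, 2.36 and 2.35 on the Ts11 arrays and 2.22 and 2.25 on the Ts15 arrays, against 2.01 and 1.67 on the WT arrays. The Ts11 and Ts15 values were above those of WT and the Ts6 values below them. None of the changes relative to WT passed the test: they were -0.42 ± 0.19 in Ts6 (limma adjusted p 0.21), -0.09 in Ts8 (0.79), 0.51 for Ts11 (0.14) and 0.39 for Ts15 (0.25). The lines did differ among themselves, with a difference of -0.93 for Ts6 minus Ts11 (limma adjusted p 0.028) and -0.81 for Ts6 minus Ts15 (adjusted p 0.023).

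**Figure D2:**
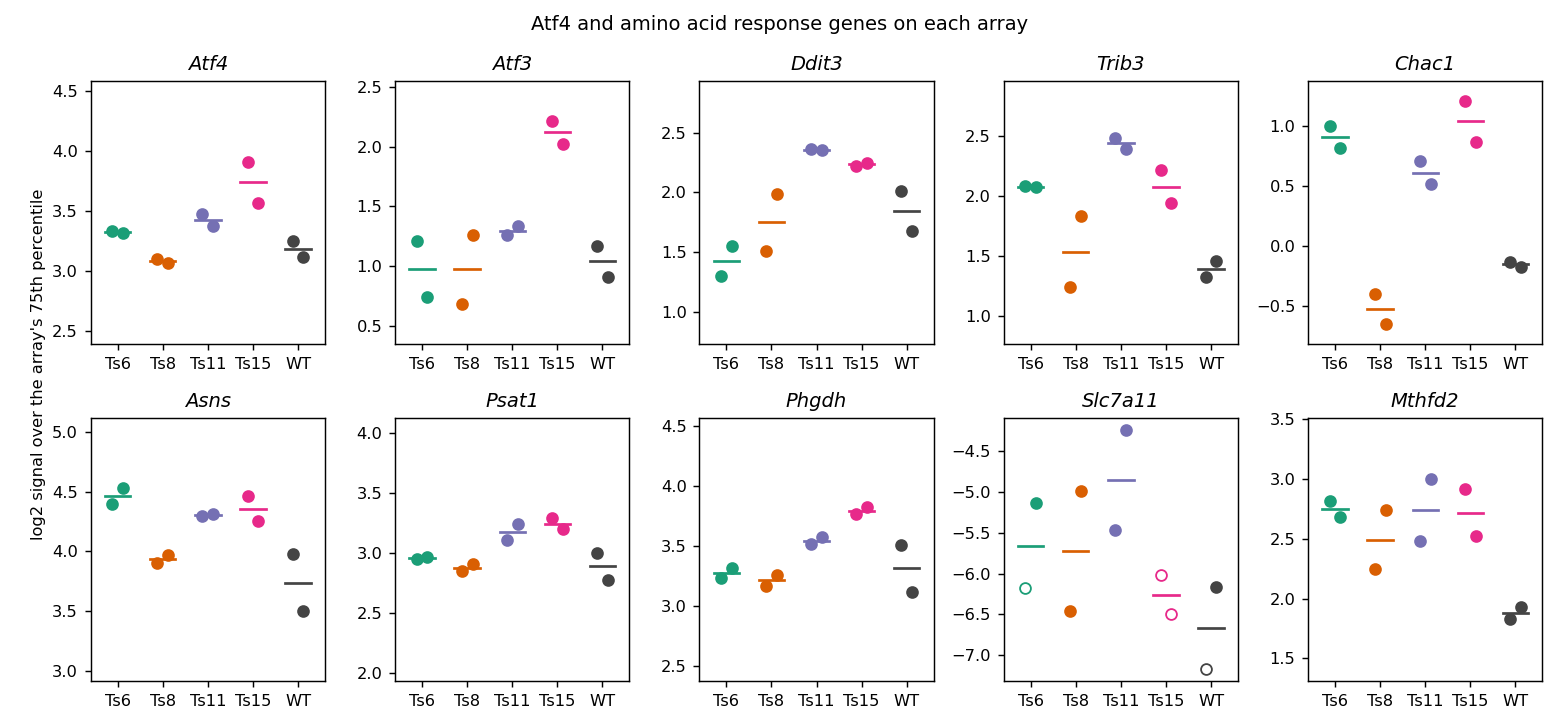
Level of each of the 10 genes on each array (log2 of signal over the array's 75th percentile, each panel with its own axis), with 1 point per array (open where not well above background), a line at each group mean, and the groups from left to right Ts6, Ts8, Ts11, Ts15 and WT. Chac1 lies below WT in Ts8 (-0.40 and -0.66 against -0.13 and -0.17) and above it in the other lines, and Atf3 is above all other arrays in Ts15 (2.21 and 2.03).

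Chac1 had the lowest adjusted p of the 10 genes in the test for any difference among groups (limma adjusted p 0.0019). It encodes a cyclotransferase that degrades glutathione and is a well-known target of Atf4. Its probe (mm9, chr2:119179990-119180049) read 1.00 and 0.82 on the Ts6 arrays, -0.40 and -0.66 on the Ts8 arrays, 0.71 and 0.52 on the Ts11 arrays and 1.21 and 0.87 on the Ts15 arrays, against -0.13 and -0.17 on the WT arrays. The arrays of Ts6, Ts11 and Ts15 were all above WT and those of Ts8 all below it. Chac1 rose 2.09-fold in Ts6 (1.06 ± 0.16, limma adjusted p 0.0068), 1.70-fold in Ts11 (0.77 ± 0.16, adjusted p 0.029) and 2.29-fold in Ts15 (1.19 ± 0.16, adjusted p 0.0067). In Ts8 it was at -0.37 ± 0.16 relative to WT, with a limma adjusted p of 0.19.

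Ts8 differed from the other lines in Chac1 by more than from WT. The difference was 1.44 ± 0.16 for Ts6 minus Ts8 (limma adjusted p 0.0015), -1.14 for Ts8 minus Ts11 (adjusted p 0.0057) and -1.57 for Ts8 minus Ts15 (adjusted p 0.0021). The Ts15 call against WT was kept when any of the 4 arrays compared was left out, at 1.02 to 1.37 with limma adjusted p of 0.017 to 0.041. The Ts6 call was lost without Ts6 replicate 1 (0.97, limma adjusted p 0.061). The Ts11 call was lost without any of its 4 arrays, at 0.67 without Ts11 replicate 1, 0.75 without WT replicate 2, 0.79 without WT replicate 1 and 0.86 without Ts11 replicate 2, with limma adjusted p between 0.069 and 0.11.

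Trib3, a pseudokinase that binds Atf4 and restrains its activity, was highest in Ts11. It read 2.08 and 2.07 on the Ts6 arrays, 1.24 and 1.83 on the Ts8 arrays, 2.48 and 2.40 on the Ts11 arrays and 2.22 and 1.94 on the Ts15 arrays, against 1.33 and 1.46 on the WT arrays (mm9, chr2:152163161-152163220). Ts6, Ts11 and Ts15 lay above WT on every array, and the Ts8 values fell on either side of WT. Trib3 rose 2.07-fold in Ts11 (1.05 ± 0.19, limma adjusted p 0.021). It was at 0.68 ± 0.19 in Ts6 and 0.69 ± 0.19 in Ts15, neither of which passed the test (limma adjusted p 0.071 and 0.076), and at 0.14 in Ts8 (0.68). Ts8 was lower than Ts11, at -0.91 ± 0.19 with a limma adjusted p of 0.031. The Ts11 call against WT was lost without any of its 4 arrays (0.98 without WT replicate 1, 1.00 without Ts11 replicate 1, 1.09 without Ts11 replicate 2 and 1.11 without WT replicate 2, limma adjusted p 0.070 to 0.082).

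Asns makes asparagine from aspartate and glutamine and is located on chromosome 6, as is Mthfd2. Its probe (mm9, chr6:7625171-7625228) read 4.39 and 4.53 on the Ts6 arrays, 3.91 and 3.97 on the Ts8 arrays, 4.30 and 4.32 on the Ts11 arrays and 4.46 and 4.25 on the Ts15 arrays, against 3.98 and 3.50 on the WT arrays. The arrays of Ts6, Ts11 and Ts15 were above both WT arrays, which differed from each other by more than the replicates of any line. Asns rose 1.65-fold in Ts6 (0.72 ± 0.16, limma adjusted p 0.035), and was at 0.57 in Ts11 (adjusted p 0.078), 0.62 in Ts15 (0.064) and 0.20 in Ts8 (0.48). The Ts6 call was lost without WT replicate 2 (0.49, limma adjusted p 0.11), Ts6 replicate 1 (0.79, 0.13) or Ts6 replicate 2 (0.65, 0.14) and kept without WT replicate 1 (0.96, 0.017). Against the mean of the 4 other groups, Asns was 0.38 ± 0.13 higher in Ts6, which did not pass the test (limma adjusted p 0.10). It passed without WT replicate 1 (0.44, limma adjusted p 0.033) and with no scaling (0.54, adjusted p 0.020). The median over the 1456 chromosome 6 genes in that contrast was 0.18, and Asns was above 67.4% of them.

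Mthfd2, a mitochondrial enzyme of folate metabolism, was above WT on every array of every line. It read 2.82 and 2.68 on the Ts6 arrays, 2.24 and 2.74 on the Ts8 arrays, 2.48 and 3.00 on the Ts11 arrays and 2.91 and 2.52 on the Ts15 arrays, against 1.83 and 1.93 on the WT arrays (mm9, chr6:83256518-83256577). The changes were 0.87 ± 0.23 for Ts6, 0.62 for Ts8, 0.86 for Ts11 and 0.84 for Ts15, and none passed the test, with limma adjusted p of 0.058, 0.15, 0.063 and 0.071. The estimate for Ts6, which has the extra chromosome 6, was close to those for Ts11 and Ts15. The difference of Ts6 from the mean of the 4 other groups was 0.29, with a 95% interval of -0.13 to 0.72 and a limma adjusted p of 0.33. Of the chromosome 6 genes, 60.9% were below Mthfd2 in that contrast.

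**Figure D3:**
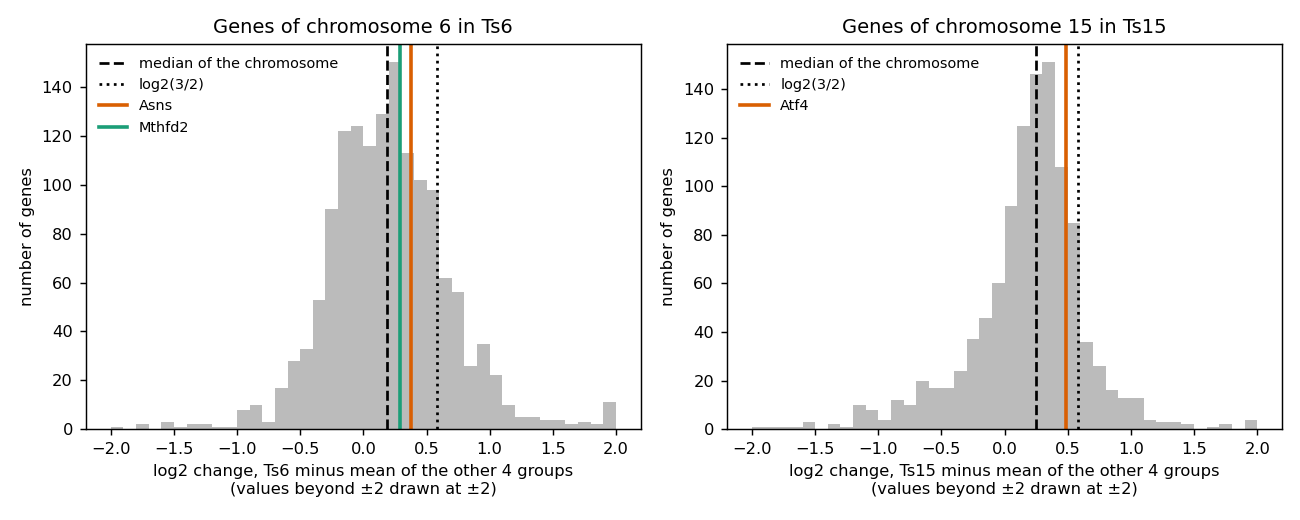
Distribution of the log2 difference from the mean of the 4 other groups for the genes of chromosome 6 in Ts6 (1456 genes) and of chromosome 15 in Ts15 (1105 genes), values beyond 2 drawn at 2, with Asns, Mthfd2 and Atf4 and the value of 3 over 2 copies marked. The medians are 0.18 and 0.25, below the 0.58 of 3 over 2 copies, and Atf4 (0.48) lies above 79.6% of chromosome 15 genes.

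Phgdh and Psat1 catalyse the first and the second step of serine synthesis. Phgdh (mm9, chr3:98117215-98117274) read 3.24 and 3.32 on the Ts6 arrays, 3.17 and 3.26 on the Ts8 arrays, 3.51 and 3.57 on the Ts11 arrays and 3.77 and 3.82 on the Ts15 arrays, against 3.51 and 3.12 on the WT arrays. Psat1 (mm9, chr19:15979622-15979681) read 2.95 and 2.97 on the Ts6 arrays, 2.85 and 2.91 on the Ts8 arrays, 3.11 and 3.25 on the Ts11 arrays and 3.29 and 3.20 on the Ts15 arrays, against 3.00 and 2.77 on the WT arrays. By these probes both genes were above WT in Ts11 and Ts15 and overlapped it in Ts6 and Ts8. For Phgdh in Ts11 the margin was narrow, at 3.513 on Ts11 replicate 1 against 3.506 on WT replicate 1. The second Psat1 probe overlapped WT in Ts11, at 0.68 on Ts11 replicate 1 against 0.69 on WT replicate 1. No change of either passed the test against WT, the highest being 0.48 ± 0.14 for Phgdh (limma adjusted p 0.078) and 0.36 ± 0.11 for Psat1 (0.11), both in Ts15. Against the mean of the 4 other groups, Phgdh rose by 0.46 ± 0.11 in Ts15 (limma adjusted p 0.029). That call was lost without Ts6 replicate 1 (0.45, limma adjusted p 0.060), Ts6 replicate 2 (0.47, 0.051), Ts15 replicate 1 (0.49, 0.13) or Ts15 replicate 2 (0.43, 0.18), and with no scaling (0.26, 0.13) or quantile normalization (0.32, 0.098). The second Phgdh probe, tested apart, gave 0.38 ± 0.11 there (adjusted p 0.055), and the second Psat1 probe 0.15 ± 0.16 against 0.27 for the first.

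Slc7a11, the exchanger that takes up cystine for glutamate, was close to the background of the arrays. Its probe (mm9, chr3:50169700-50169759) was well above background on 1 of 2 Ts6 arrays, both Ts8 arrays, both Ts11 arrays, neither Ts15 array and 1 of 2 WT arrays. It read -6.18 and -5.13 on the Ts6 arrays, -6.46 and -4.99 on the Ts8 arrays, -5.46 and -4.25 on the Ts11 arrays and -6.02 and -6.50 on the Ts15 arrays, against -7.16 and -6.17 on the WT arrays. Replicates of 1 group differed by up to 1.47, in Ts8. No line passed the test, and the estimate for Ts11 of 1.81 had a 95% interval of 0.35 to 3.27 before adjustment (limma adjusted p 0.12).

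**Figure D4:**
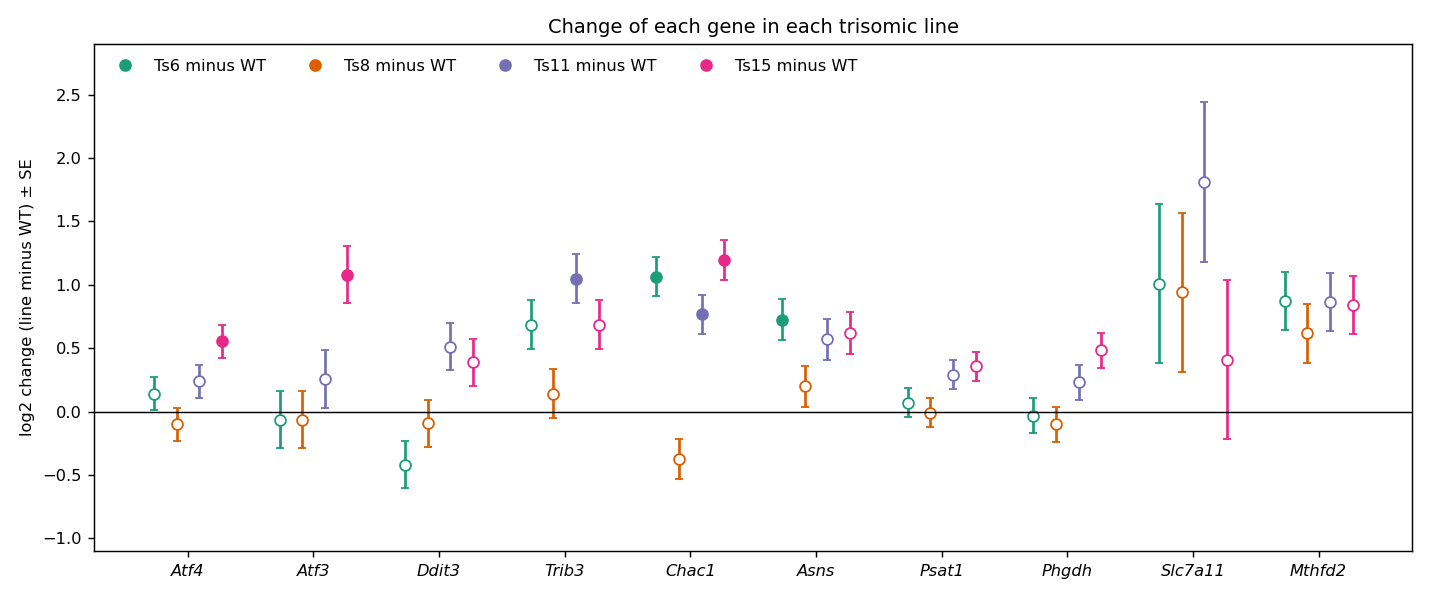
Change of each of the 10 genes in each line relative to WT (log2 scale, limma estimate ± SE), with filled points for calls at an adjusted p under 0.05. The calls are Asns and Chac1 in Ts6, Chac1 and Trib3 in Ts11, and Atf4, Atf3 and Chac1 in Ts15.

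Over the 10 genes, 3 rose in Ts15, 2 each in Ts6 and Ts11 and 0 in Ts8 relative to WT, and none fell. Of all genes tested, 4.44%, 2.06%, 4.03% and 2.58% rose in Ts6, Ts8, Ts11 and Ts15 and 4.6%, 1.43%, 4.1% and 4.86% fell. These shares are no expected rate for the 10 genes, which were chosen with earlier results of these data known. All 4 lines were also set against the same WT arrays. The share of all genes called in either direction was 9.04% for Ts6, 3.49% for Ts8, 8.13% for Ts11 and 7.43% for Ts15. An unadjusted p under 0.05 was reached by 4 of the 10 genes for Ts6, 2 for Ts8, 7 for Ts11 and 8 for Ts15, against 24.9%, 24.7%, 25.3% and 24.4% of all genes. In Ts8, where 0 were called by limma in every alternative fit, the 2 were Chac1 (lower) and Mthfd2 (higher), no more than the share of all genes. The median change of the 10 genes was 0.41 for Ts6, -0.04 for Ts8, 0.54 for Ts11 and 0.59 for Ts15, against medians over all genes of -0.01, 0.04, 0.00 and -0.01. Slc7a11 passed the filter on dim signals only through Ts8 and Ts11. For the 9 other genes the medians were 0.14 for Ts6, -0.07 for Ts8, 0.51 for Ts11 and 0.62 for Ts15, and 6 in place of 7 were at an unadjusted p under 0.05 in Ts11.

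Leaving aside Slc7a11, both arrays of Ts11 and both of Ts15 lay above both WT arrays for the 9 other genes. Each gene was read by its main probe. In Ts11 the margin for Phgdh was narrow (3.513 against 3.506), and the second Psat1 probe overlapped WT. In Ts6 there were 5 genes above and 1 below (Ddit3), and in Ts8 1 above (Mthfd2) and 2 below (Atf4 and Chac1). Of all genes, 27.1% for Ts6, 31.1% for Ts8, 26.8% for Ts11 and 27.2% for Ts15 lay above WT in this way, and 30.4%, 24.4%, 26.9% and 30% lay below. For the mean of the 4 lines against WT, 1 of the 10 genes was called, Chac1 at 0.66 ± 0.12 (limma adjusted p 0.033), against 3.85% of all genes in either direction and 1.9% that rose. That call was lost without WT replicate 1 or 2 (0.68 and 0.64), Ts6 replicate 1 or 2 (0.64 and 0.69), Ts11 replicate 1 (0.64) or Ts15 replicate 1 (0.62), with limma adjusted p of 0.052 to 0.16. A test for any difference among the 5 groups called 6 of the 10 genes (Atf4, Atf3, Ddit3, Trib3, Chac1 and Asns) and 28.7% of all genes.

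WT was at passages 18 and 20, above every line array except Ts6 replicate 2, also at 18, and passage was entered as a covariate in an alternative fit. Of the 7 calls against WT, 1 remained in it, Chac1 in Ts6. The other estimates were then 0.72 for Asns in Ts6, 0.42 for Chac1 and 1.12 for Trib3 in Ts11, and 0.45 for Atf4, 0.89 for Atf3 and 0.95 for Chac1 in Ts15, with limma adjusted p of 0.16, 0.38, 0.21, 0.27, 0.21 and 0.054. With no filter on dim probes, the calls of Asns in Ts6, Chac1 in Ts11, and Atf3 and Atf4 in Ts15 were lost, at limma adjusted p of 0.058, 0.053, 0.058 and 0.078. In a fit of only the 4 arrays compared, those of Asns, Chac1 and Trib3 in Ts11, and Atf4 were lost (adjusted p 0.11, 0.085, 0.053 and 0.14), while Mthfd2 and Trib3 gained a call in Ts6 (limma adjusted p 0.030 and 0.045). On slide 1 alone the call of Asns was lost (0.051). In the fit with passage, the genes called among all those tested fell to 829 for Ts6, 6 for Ts8, 48 for Ts11 and 449 for Ts15, against 2549, 984, 2292 and 2096 without passage.

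Ts15 and Ts6 were also set against the mean of the 4 other groups, a contrast in which WT weighs less. In Ts15, 4 of the 10 genes rose (Atf4, Atf3, Chac1 at 0.83 ± 0.12 and Phgdh), against 5.73% of all genes that rose and 16.2% called in either direction. The Chac1 and Atf3 calls were lost without Ts15 replicate 1 (0.66, limma adjusted p 0.054, and 0.95, adjusted p 0.083), and that of Atf3 also without Ts15 replicate 2 (1.14, adjusted p 0.058). In Ts6, Chac1 rose by 0.67 ± 0.12 (limma adjusted p 0.013) and Ddit3 fell by 0.62 ± 0.15 (adjusted p 0.031), against 6.58% of all genes that rose and 6.49% that fell. Of the 60 differences between pairs of lines, 12 passed the test, each adjusted over all genes within its pair. Chac1, Atf3 and Ddit3 gave 3, 3 and 2 of them, Phgdh 2, and Atf4 and Trib3 1 each. Unlike the calls against WT, the pair calls were not tried with an array left out. Ts15 was higher than Ts8 in Atf4 (Ts8 minus Ts15, -0.66 ± 0.13, limma adjusted p 0.017) and in Phgdh (-0.58, adjusted p 0.029), and higher than Ts6 in Phgdh (-0.52 for Ts6 minus Ts15, adjusted p 0.038). For all genes, the share called between lines was 13.7% for Ts6 and Ts8, 7.27% for Ts6 and Ts11, 18.2% for Ts6 and Ts15, 7.81% for Ts8 and Ts11, 17.2% for Ts8 and Ts15, and 15% for Ts11 and Ts15.

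The rest of the pathway was described with lists of related genes. Upstream of Atf4, 0 of 10 genes for the eIF2α kinases and their control were called by limma in any line (at an unadjusted p under 0.05, 1 in Ts6, 3 in Ts15 and 0 in Ts8 and Ts11, against the 24.4% to 25.3% of all genes given above), with medians of 0.20 for Ts6, -0.02 for Ts8, -0.03 for Ts11 and -0.02 for Ts15. Gcn2 (Eif2ak4) was at 0.21, 0.07, -0.16 and -0.15 and Perk (Eif2ak3) at 0.37, 0.12, 0.31 and -0.42 in these lines, with limma adjusted p of 0.18 or more. The phosphatase subunit Ppp1r15a, which is induced by Atf4 and reverses eIF2α phosphorylation, was at -0.02, -0.01, -0.17 and 0.18 (limma adjusted p of 0.43 or more). Kinase activity and phosphorylation were not measured.

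Among 13 other targets and partners of Atf4, 3 rose in Ts11 and 1 in Ts15, against 4.03% and 2.58% of all genes. An unadjusted limma p under 0.05 was reached by 8 in Ts11 and 7 in Ts15, against 25.3% and 24.4% of all genes. In Ts6 and Ts8 0 were called by limma, and 3 and 4 were at an unadjusted p under 0.05, near the 24.9% and 24.7% of all genes. Nupr1, a small stress-induced chromatin protein, rose in both (0.95 ± 0.21 in Ts11 and 0.97 ± 0.21 in Ts15, limma adjusted p 0.034 and 0.033). Stc2, a secreted glycoprotein on chromosome 11, rose by 1.31 ± 0.23 in Ts11 (adjusted p 0.018), and the Atf4 partner Cebpb by 0.66 ± 0.15 (0.041). The median of the list was 0.25 for Ts6, 0.38 for Ts8, 0.45 for Ts11 and 0.39 for Ts15.

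Of 16 genes of amino acid synthesis and folate metabolism other than the members, 2 rose in Ts6, 2 in Ts11 and 1 in Ts15. The shares of all genes that rose were 4.44%, 4.03% and 2.58%. In Ts8 0 were called (2 at an unadjusted limma p under 0.05, against 24.7% of all genes). In Ts6, Ts11 and Ts15, 5, 8 and 4 were at an unadjusted limma p under 0.05, against 24.9%, 25.3% and 24.4% of all genes. Bcat1, the cytosolic branched-chain aminotransferase, rose in Ts6 (0.55), where its chromosome 6 is trisomic, and in Ts11 (0.80) and Ts15 (0.73), with limma adjusted p of 0.036, 0.012 and 0.017. The other calls were of genes on the trisomic chromosome of their line: Aldh1l1, a folate dehydrogenase on chromosome 6, at 0.95 in Ts6 (adjusted p 0.0063), and Pycr1, a proline synthesis enzyme on chromosome 11, at 0.97 in Ts11 (0.033). Medians were 0.13, 0.06, 0.35 and 0.29 in Ts6, Ts8, Ts11 and Ts15. Of 10 amino acid transporters other than Slc7a11, Slc43a1, a carrier of large neutral amino acids, fell by 1.41 in Ts6 (limma adjusted p 0.0020). It was the only transporter called in a line, while 1, 2, 4 and 5 were at an unadjusted p under 0.05 in Ts6, Ts8, Ts11 and Ts15, against 24.9%, 24.7%, 25.3% and 24.4% of all genes. Of 19 cytosolic tRNA synthetases, Cars rose in Ts11 (0.55) and Ts15 (0.59), Rars, on chromosome 11, rose in Ts11 (0.42), and Vars fell by 0.63 in Ts11, with limma adjusted p of 0.046, 0.038, 0.047 and 0.022, and 0 were called in Ts6 and Ts8 (4 in each at an unadjusted p under 0.05, below the share of all genes). In Ts11 and Ts15, 5 in each were at an unadjusted limma p under 0.05, against 25.3% and 24.4% of all genes.

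**Figure D5:**
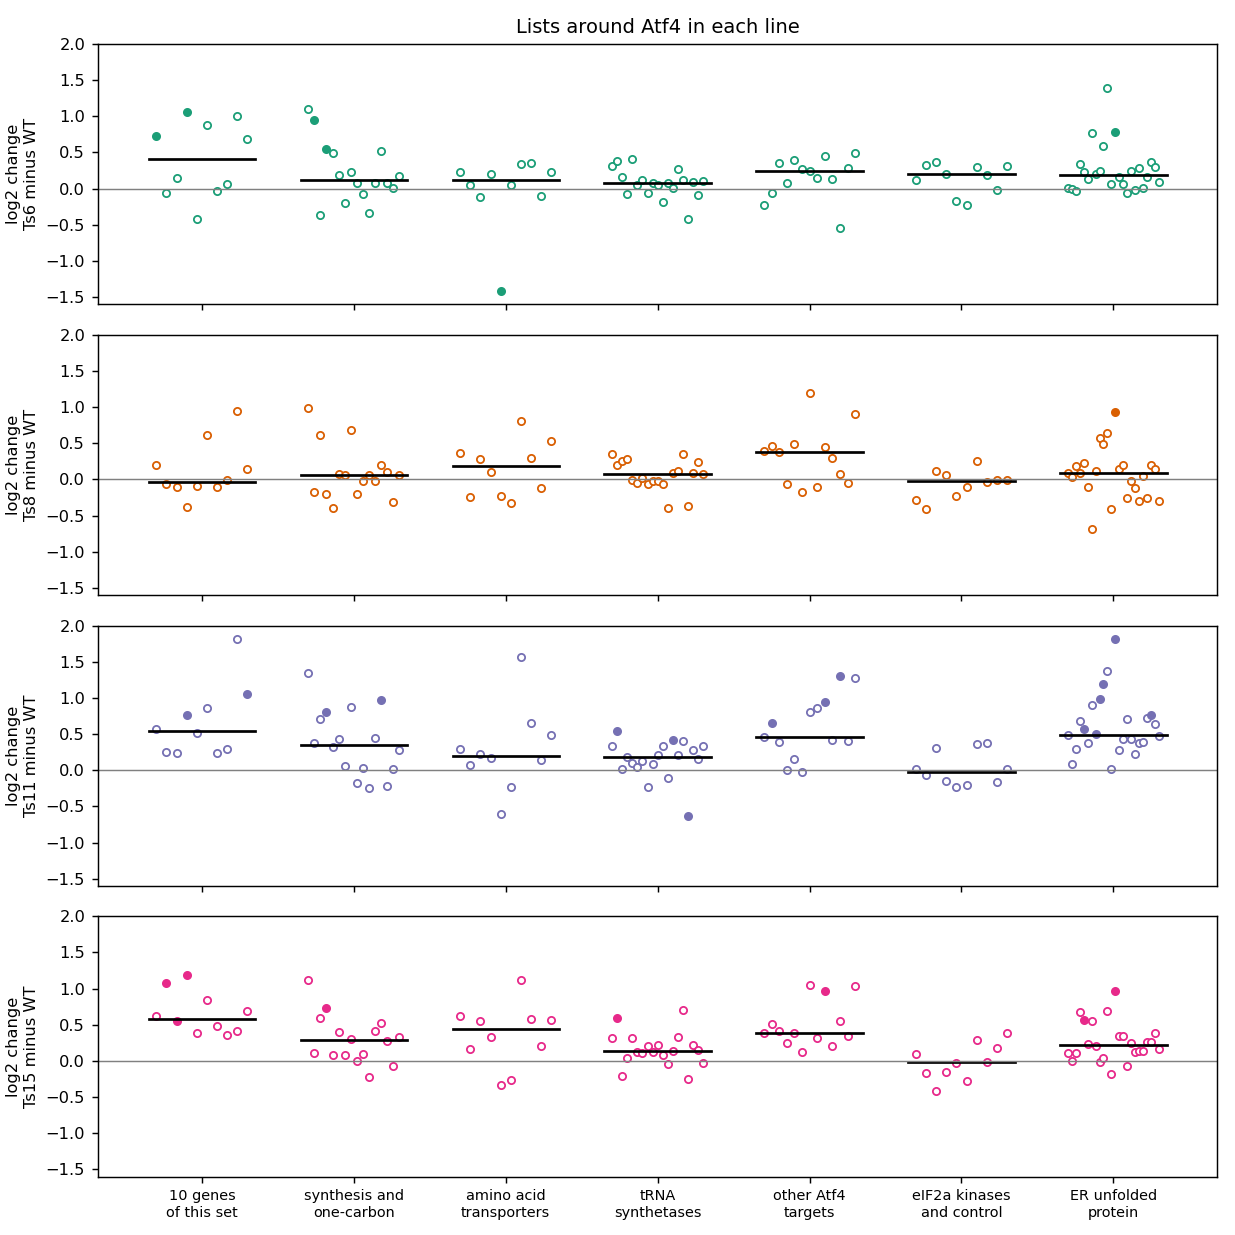
Change relative to WT (log2 scale) of each gene of the 7 lists in each line (1 panel per line), with the median of each list marked and calls at an adjusted p under 0.05 filled. The medians of the members are 0.41 for Ts6, -0.04 for Ts8, 0.54 for Ts11 and 0.59 for Ts15. Without Slc7a11, which was close to background, they are 0.14, -0.07, 0.51 and 0.62. Those of the unfolded protein response list are 0.18, 0.09, 0.49 and 0.23.

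The ER unfolded protein response shares eIF2α phosphorylation and Atf4 with the amino acid response. Of its 24 listed genes, 6 rose in Ts11, 2 in Ts15 and 1 each in Ts6 and Ts8, and 0 fell. Of all genes, 4.03%, 2.58%, 4.44% and 2.06% rose in Ts11, Ts15, Ts6 and Ts8. An unadjusted limma p under 0.05 was reached by 18 of the 24 in Ts11, 4 in Ts15, 4 in Ts6 and 3 in Ts8. The share of all genes at that threshold was 25.3%, 24.4%, 24.9% and 24.7%. Herpud1, a component of ER-associated degradation on chromosome 8, rose in all 4 lines, by 0.78 for Ts6, 0.93 for Ts8, 1.81 for Ts11 and 0.96 for Ts15 (limma adjusted p 0.0086, 0.019, 0.0007 and 0.0058). In Ts11 the cochaperones Dnajc3 (1.20), Dnajb9 (0.99) and Dnajb11 (0.50) and the degradation factors Sel1l (0.76) and Derl1 (0.57) rose too, with limma adjusted p of 0.0093 to 0.047. In Ts15 Dnajc3 was at 0.04 and Dnajb9 at -0.02, and Derl1, on chromosome 15, rose by 0.56 (limma adjusted p 0.030). Whether these lists differ between lines was not tested.

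Feeder markers moved in part with the lines. Relative to WT, 2 of the 19 tested markers fell in Ts6 (Col5a2 by 1.20 and Pdgfra by 0.70, limma adjusted p 0.046 and 0.050). Acta2 alone rose in Ts15 (by 0.65, limma adjusted p 0.043). The shares of all genes were 4.6% falling in Ts6 and 2.58% rising in Ts15. Ts6 had 0 of the 19 marker estimates above 0, Ts8 had 3, Ts11 had 5 and Ts15 had 15. At an unadjusted limma p under 0.05 there were 6 markers for Ts6, 3 for Ts8, 1 for Ts11 and 2 for Ts15. The shares of all genes at that threshold were 24.9%, 24.7%, 25.3% and 24.4%. Marker medians were -0.34 for Ts6, -0.22 for Ts8, -0.20 for Ts11 and 0.17 for Ts15. Atf4 and Atf3 were called against WT only in Ts15, the line with a feeder median above 0. Asns was called only in Ts6 and Trib3 only in Ts11, with feeder medians below 0. Chac1 was called in Ts6, Ts11 and Ts15, and no member in Ts8. The part of feeder RNA in the values of the 10 genes was not tested.

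Likeness to other genes was measured by Pearson's r over the 10 arrays among 15113 candidate genes, as a description of values that share 5 groups and 2 slides. For Atf4 the nearest were Spryd3, Vps28, Socs1, Sparc and Lrpap1 (r of 0.97, 0.97, 0.96, 0.96 and 0.96), of which Spryd3 and Vps28 are also on chromosome 15. For Trib3 they were Vegfa (0.94), Supt3, Bod1, Fam104a and Naa38 (0.92 to 0.93). Bod1, Fam104a and Naa38 are on chromosome 11, the extra chromosome of Ts11, the line in which Trib3 was highest. For Asns the nearest were Sec11a (0.96), Ogt, Gnb1l, Sars and Trappc6a (0.92 to 0.93). Among the members, Psat1 and Phgdh were the most alike (0.93). Atf4 had an r of 0.86 with Psat1, 0.84 with Phgdh, 0.84 with Chac1 and 0.83 with Atf3, against 0.61 with Trib3, 0.52 with Ddit3 and -0.03 with Slc7a11.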

How the data were processed

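Cells, groups and arrays are as in the opening; per the labels' protocols, total RNA was linearly amplified and labelled with Cy3. The authors' deposited scanner files hold intensity per spot, made per the file headers with Agilent Feature Extraction 10.7.3.1 (no background correction, multiplicative and spatial detrending, surrogate values for dim spots), with probes placed on mm9. The deposited series table holds log2 values; each column's correlation with the scanner's log2 signal was 0.998 to 1.000 and its median -3.42 to -3.32, the SD of 3.81 being the same in all columns. The reason for the unequal medians is not given in the sources used here, and direction is that of the scanner signal, so the table served as an alternative. The file of Ts15 replicate 2 holds values of 3 significant digits.

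From the intensities, log2 of the processed signal minus the array's 75th percentile was averaged over spots not flagged as outliers. Probes that were well above background on both arrays of some group were kept (43056 of 55681; 176 had no unflagged value on some array). Symbols were updated through RefSeq accessions (26762 of 28390 matched, 2878 changed). The probe with the highest mean stood for its gene. limma 3.58.1 in R 4.3.3 fitted 1 mean per group over all 10 arrays (5 residual and 2.67 prior degrees of freedom), two-sided, with Benjamini-Hochberg adjustment over 28193 genes within each comparison and a call at an adjusted p under 0.05. On simulated data for Ts6 against WT on 28193 genes, 73% of genes changed by 1 and 95% of those changed by 2 on the log2 scale were called, with 15 false calls. With 2 arrays per group, the number of arrays limits the precision.

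The members, lists and named genes were chosen with earlier results of these data known. Named were all members, per list and line up to 3 called genes of the highest and 3 of the lowest change (Sel1l, Derl1 and Dnajb11 in Ts11, and the kinase and phosphatase genes, were named after their values were seen), and for Atf4, Trib3 and Asns the 5 genes with the highest r. Alternatives were other scalings and backgrounds, the series table, filters, the mean of probes, fewer arrays, a replicate block, passage as a covariate, slide 1 alone and each array left out. Promoters are RefSeq's (GRCm38.p6); all 10 members matched by symbol. Python 3.11.15 was used with numpy 2.4.6, pandas 2.3.3 and matplotlib 3.10.9.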

Additional observations from a re-analysis of the deposited data

Results flagged for a closer look

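The members differed in 12 of 60 tests of 1 line against another, each from limma with adjustment over all genes within the pair. None of these tests was repeated with an array left out. Chac1 differed by 1.44 for Ts6 minus Ts8 (limma adjusted p 0.0015), -1.14 for Ts8 minus Ts11 (0.0057) and -1.57 for Ts8 minus Ts15 (0.0021). Atf3 differed by -1.14 for Ts6 minus Ts15 (0.014), -1.14 for Ts8 minus Ts15 (0.016) and -0.82 for Ts11 minus Ts15 (0.048). Ddit3 differed by -0.93 for Ts6 minus Ts11 (0.028) and -0.81 for Ts6 minus Ts15 (0.023). Phgdh differed by -0.52 for Ts6 minus Ts15 (0.038) and -0.58 for Ts8 minus Ts15 (0.029). Atf4 differed by -0.66 for Ts8 minus Ts15 (0.017) and Trib3 by -0.91 for Ts8 minus Ts11 (0.031). Of these, 8 involve Ts15, whose arrays were on a slide of their own. Of all genes, 18.2%, 17.2% and 15% were called between Ts15 and Ts6, Ts8 and Ts11. The share was 13.7% between Ts6 and Ts8, 7.27% between Ts6 and Ts11 and 7.81% between Ts8 and Ts11. No sample could be tested as an outlier, since each group holds 2 arrays.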

How the results depend on the processing

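Atf4 in Ts15 against the 4 other groups (0.48) was 0.29 (limma adjusted p 0.054) without scaling and 0.32 to 0.65 with each array left out, and 0.63 for its other probe, an alternative chosen after seeing the data. Its adjusted p over the other settings ran from 0.0090 to 0.17. Asns in Ts6 against the others (0.38) was 0.54 (adjusted p 0.020) without scaling and 0.31 to 0.45 with each array left out. No scaling moved the median of all genes relative to WT by -0.14 in Ts8, -0.14 in Ts11 and -0.26 in Ts15. Counts of members called (Ts6 2, Ts8 0, Ts11 2, Ts15 3, mean of lines 1, any difference 6) became 1, 0, 1, 1, 0 and 3 with no filter on dim probes, 1, 0, 0, 0, 0 and 3 with passage as a covariate, and 1 (Ts6), 0 (mean of lines) and 2 (any difference) on slide 1 arrays only. In Ts11 they were 4 with the authors' series table and 0 with only the arrays compared. For the mean of lines they were 3 with normexp and quantile normalization, 2 with the series table and 4 with probes well above background on all 10 arrays. Over the main fit and those with each array left out, they were 0 to 2 in Ts6, 0 in Ts8 and 0 to 2 in Ts11. They were 1 to 3 in Ts15, 0 to 3 for the mean of lines and 2 to 6 for any difference. The replicate block gave 2, 0, 2, 3, 1 and 5; same-numbered samples share only a number, with deviations that correlated between -0.10 and 0.39 and over 0.1 in 2 of 10 pairs of groups. The cause was not tested.

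Estimates that changed sign had passed no test: Atf3 in Ts11 (-0.023) and Ddit3 in Ts8 (0.11) with passage, Psat1 in Ts8 (0.020) with the series table, and Trib3 in Ts8 (-0.0027) without scaling. With each array left out, Asns in Ts8 ran from -0.038 to 0.44, Atf3 from -0.30 to 0.17 in Ts6 and -0.36 to 0.22 in Ts8, Ddit3 in Ts8 from -0.33 to 0.14, and Phgdh from -0.23 to 0.16 in Ts6 and -0.29 to 0.094 in Ts8. Psat1 ran from -0.045 to 0.19 in Ts6 and -0.13 to 0.11 in Ts8, Slc7a11 in Ts15 from -0.088 to 0.91 and Trib3 in Ts8 from -0.15 to 0.44. Of the other values of single genes, 557 kept direction and call, 37 lost the call and 13 gained one.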
